A study of Mus musculus with 10 samples.

Results

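Genes of antigen presentation by MHC class II, 8 in number, were followed in type 2 conventional dendritic cells (cDC2) sorted from mouse spleen: the transactivator gene Ciita, the classical chain genes H2-Aa, H2-Ab1 and H2-Eb1, the invariant chain gene Cd74, and the peptide-loading genes H2-DMa, H2-Oa and H2-Ob. They were chosen by symbol, with earlier results of these data known. Each was read from 1 probe set of its own, and all 8 were among the 19938 genes measured. The cells came from Notch2-11cKO mice (genotype CD11c-Cre+ Notch2f/f, in which the CD11c promoter drives Cre and Notch2 is deleted in CD11c-expressing cells) or from WT mice. Mice of each genotype had received 200000000 sheep red blood cells (SRBC), an antigen commonly used to raise antibody responses, by the intraperitoneal route 24 hours before sorting, or were untreated. Notch2-11cKO SRBC and WT SRBC had 3 arrays each, and Notch2-11cKO untreated and WT untreated had 2 arrays each. The sources used here give neither the age and strain of the mice nor whether the arrays of a group came from separate mice, so p-values measure the spread between these arrays, which may be technical.

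MHC class II molecules carry peptides from endocytosed proteins to the cell surface, where CD4+ T cells read them. An alpha and a beta chain assemble in the endoplasmic reticulum around the invariant chain, which blocks the peptide groove and directs the complex to endosomes. There proteases trim the invariant chain down to a fragment called CLIP, H2-DM exchanges CLIP for peptide, and H2-O, best known from B cells and also made by dendritic cells, binds H2-DM and restrains it. CIITA does not bind DNA itself and docks on factors at the X and Y boxes of these promoters. In cultured dendritic cells Ciita transcription is known to be shut off on maturation, while surface class II becomes long-lived.

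The promoters are shown because H2-Aa and H2-Eb1 were not called and the H2-O genes were in the comparisons that follow, and the promoters of all 4 hold a like pair of boxes by a core chosen after their letters had been read. RefSeq promoter windows (GRCm38.p6, 250 bases before to 50 after the start site) matched 5 of the 8 genes, H2-Aa, H2-Eb1, H2-DMa, H2-Oa and H2-Ob, all on chromosome 17. In each of the stretches below, written 5′ to 3′ on the strand of the gene, the capitals mark a shortened X1 box core (GNAAC) and then the Y box core (ATTGG), with 15 to 40 bases allowed between them.
H2-Aa: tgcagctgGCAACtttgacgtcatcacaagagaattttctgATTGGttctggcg
H2-Eb1: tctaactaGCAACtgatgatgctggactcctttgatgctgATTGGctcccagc
H2-Oa: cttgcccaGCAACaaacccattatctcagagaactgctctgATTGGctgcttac
H2-Ob: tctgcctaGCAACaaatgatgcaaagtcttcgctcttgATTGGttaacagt
The stretches lie at chr17:34287859-34287912 (H2-Aa, minus strand), chr17:34305768-34305820 (H2-Eb1, plus strand), chr17:34092295-34092348 (H2-Oa, plus strand) and chr17:34238810-34238860 (H2-Ob, plus strand). The boxes were 28, 27, 28 and 25 bases apart in that order, and the Y core began 48, 59, 43 and 57 bases before the start site. This pair on the strand of the gene was present in 2.07% of all 32841 windows. With the longer X1 core GNNACNG, the pair was found in H2-Eb1 alone of the 5 genes and in 2.17% of all windows. Searched singly on both strands, GNNACNG occurred in 88.5% of windows, GNAAC in 84.9% and ATTGG in 37.4%. In both windows of H2-DMa no such pair was found with either core, which says only that these letters are not there. Outside the 8 genes, the window of H2-DMb1, a beta chain gene of H2-DM, held the pair with either core. So did that of the class II beta chain gene H2-Eb2, whereas that of H2-DMb2, also a beta chain gene of H2-DM, held it with neither.

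The labels and arrays were examined first. The Notch2 probe set did not show the deletion: its mean log2 intensity was 7.61 ± 0.37 in Notch2-11cKO SRBC and 7.26 ± 0.28 in WT SRBC (SD, n = 3 each), and 8.27 ± 0.14 in Notch2-11cKO untreated and 8.13 ± 0.02 in WT untreated (SD, n = 2 each). The sources used here do not say which part of Notch2 is deleted, so this probe set may lie outside it and checks nothing. Of the cDC2 markers, Itgax and Sirpa lay at log2 9.02 or above in all 10 arrays, whereas Clec4a4 lay between 3.23 and 4.48 in the Notch2-11cKO arrays and between 6.33 and 8.13 in the WT arrays. Of the 9 cDC2 markers, 3 were called lower in untreated Notch2-11cKO than in WT (Cd4, Esam and Clec4a4), and after SRBC 2 were lower (Esam and Clec4a4) and 1 higher (Itgam). In the WT response 2 fell (Itgam and Cd4). Over all genes, 2.16% were called lower in untreated Notch2-11cKO, 1.96% lower and 3.36% higher after SRBC, and 1.97% lower in the WT response. Itgam lay at 8.18 to 8.42 in Notch2-11cKO SRBC and 6.26 to 6.79 in WT SRBC. WT SRBC 1 and Notch2-11cKO SRBC 3 stood apart from the other arrays of their groups. Over genes above the median level, Pearson r of WT SRBC 1 with the others was 0.929 and 0.928, against 0.984 between those, and r of Notch2-11cKO SRBC 3 was 0.947 and 0.936, against 0.972. Results are therefore also given without these 2 arrays. They were picked from the same data, so leaving them out narrows the spread, and calls made that way are not independent support. Differences are in log2 intensity ± SE of the fit with all 10 arrays, and a gene was called changed at an adjusted p under 0.05 over all genes. The comparisons share arrays and are not independent of each other. In bulk RNA, fewer cells of a type and less RNA per cell cannot be told apart.

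**Figure D1:**
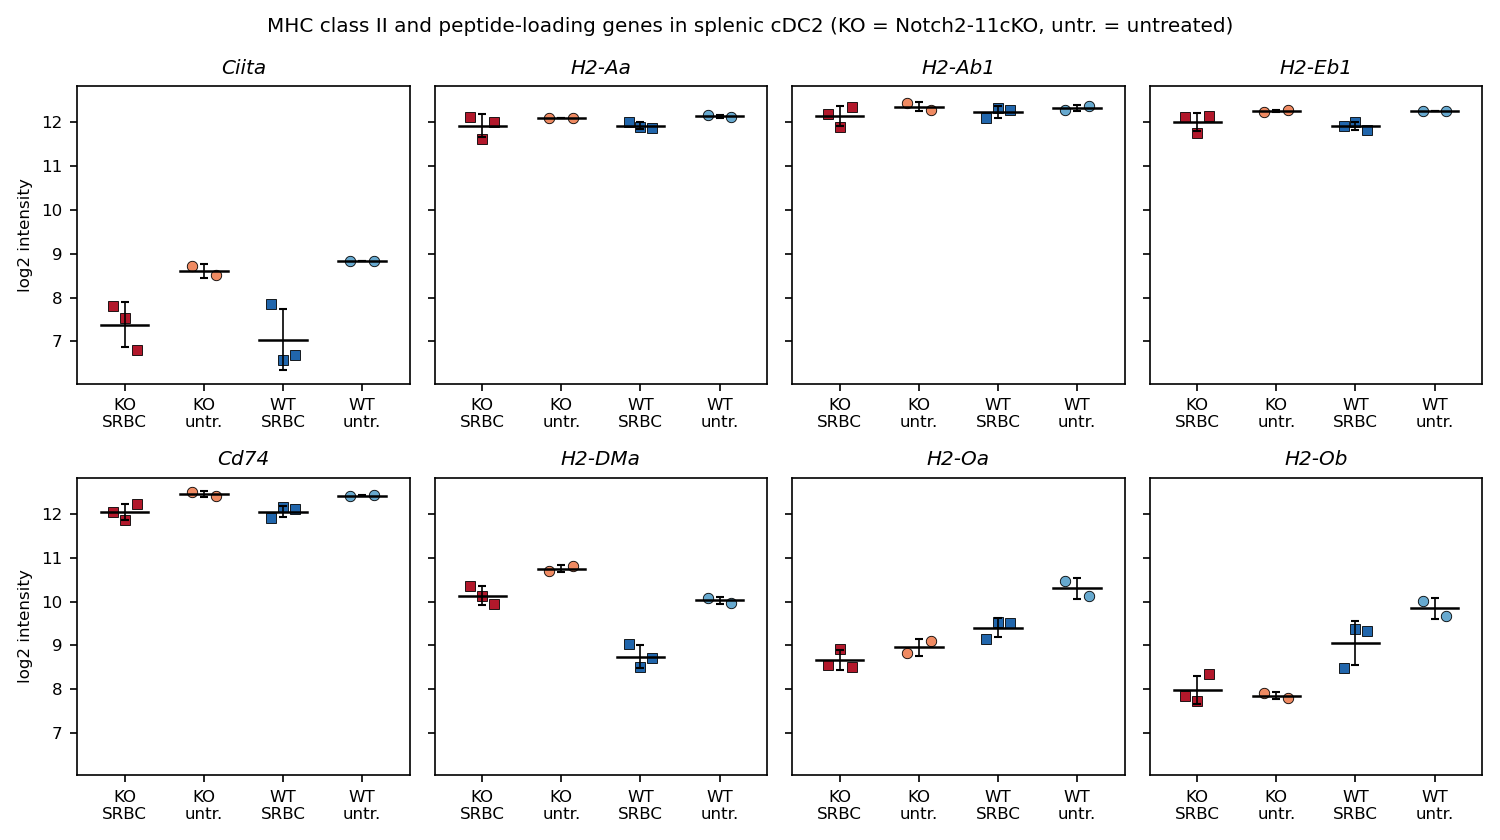
Log2 intensity of the 8 genes in every array of the 4 groups (KO stands for Notch2-11cKO). Points are arrays, the horizontal line is the group mean and the whisker the SD (n = 3 after SRBC, n = 2 untreated). Ciita is lower in both SRBC groups, H2-Oa and H2-Ob are lower in both Notch2-11cKO groups, and the classical chain genes and Cd74 stay within a narrow band near log2 12.

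Ciita, the master regulator of class II transcription, fell 3.48-fold in WT cDC2 after SRBC (log2 difference -1.80 ± 0.37, 95% interval -2.61 to -0.98, adjusted p = 0.0233). Its log2 intensity was 7.84, 6.58 and 6.70 in the WT SRBC arrays, against 8.84 and 8.84 in the WT untreated arrays. In Notch2-11cKO it was 7.81, 7.53 and 6.81 after SRBC, against 8.73 and 8.50 untreated. Every SRBC array lay below every untreated array in both genotypes. The Notch2-11cKO difference was -1.23 ± 0.37 and did not pass the threshold (adjusted p = 0.237). The test of the responses against each other gave 0.56 ± 0.52 (interval -0.59 to 1.71, adjusted p = 0.959), so the data do not separate them.

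Ciita was not called between genotypes. The difference, Notch2-11cKO minus WT, was -0.22 ± 0.41 in untreated cells (adjusted p = 0.915) and 0.34 ± 0.33 after SRBC (adjusted p = 0.683). In the order of the group means, WT untreated (8.84), Notch2-11cKO untreated (8.62), Notch2-11cKO SRBC (7.38) and WT SRBC (7.04), no neighbours differed past the threshold. Groups farther apart did: Notch2-11cKO untreated was above WT SRBC by 1.58 (adjusted p = 0.0208), and Notch2-11cKO SRBC was below WT untreated, with a difference of -1.45 (adjusted p = 0.0327). Of all genes, 9.37% were called in the first and 8.53% in the second of these.

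The Ciita results depended on single arrays. Leaving out WT untreated 1, WT untreated 2, WT SRBC 2 or WT SRBC 3 ended the WT call (adjusted p = 0.193, 0.154, 0.0757 and 0.0805 in that order), with differences between -1.80 and -1.57. Without both arrays that stood apart, the WT difference was -2.20 (adjusted p = 1.46e-05) and the Notch2-11cKO response was called (-0.95, adjusted p = 0.0171). Ciita was then higher in Notch2-11cKO than in WT after SRBC (1.03, adjusted p = 0.00188), and the responses differed (1.25, adjusted p = 0.0161). The removed arrays held the highest Ciita of WT SRBC (7.84) and the lowest of Notch2-11cKO SRBC (6.81). Their removal thus widens the genotype difference after SRBC and narrows the spread, so these calls are not independent support.

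Immediate-early and heat shock genes, which respond to tissue digestion and handling as well as to stimulation, moved with Ciita. The mean log2 intensity of 27 such genes was 9.16, 8.73 and 8.77 in WT SRBC, against 10.22 and 10.12 in WT untreated. It was 9.45, 9.18 and 8.63 in Notch2-11cKO SRBC, against at least 9.90 in both Notch2-11cKO untreated arrays. The arrays with the higher mean in each SRBC group were also those with the higher Ciita. With this mean as a covariate, the Ciita difference in WT was 0.23 ± 0.49 (adjusted p = 0.876) and that in Notch2-11cKO 0.13 ± 0.37 (adjusted p = 0.905). The mean separates untreated from SRBC arrays within each genotype, so handling and treatment cannot be told apart here.

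**Figure D2:**
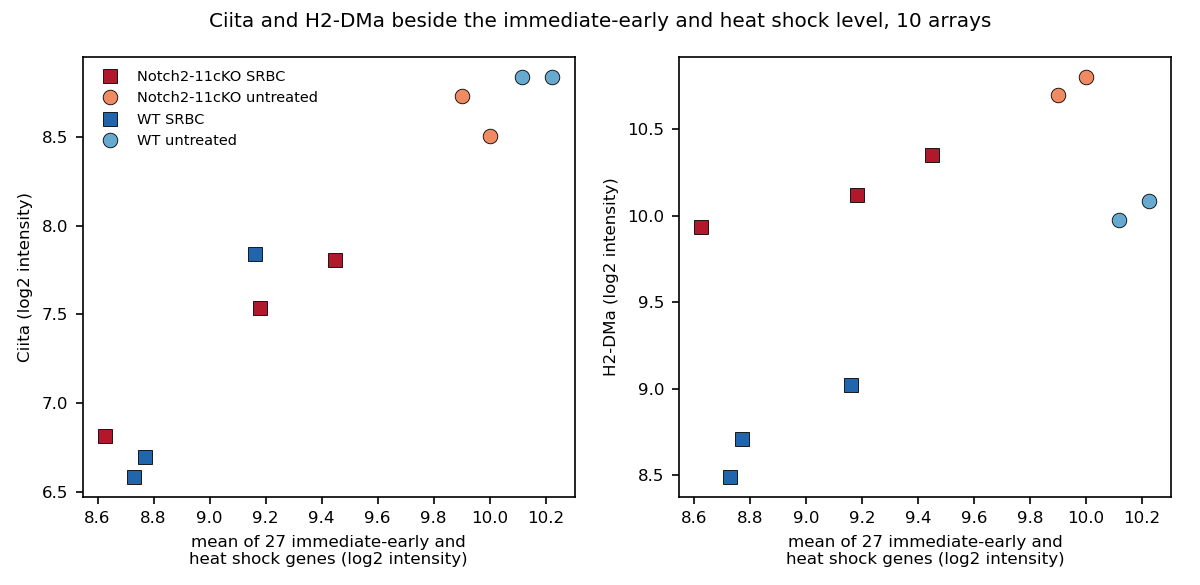
Log2 intensity of Ciita (left) and H2-DMa (right) in each array against the mean log2 intensity of 27 immediate-early and heat shock genes. Squares are SRBC arrays and circles untreated arrays. All SRBC arrays have lower means (8.63 to 9.45) than the untreated arrays (9.90 to 10.22), and Ciita runs along with the mean in both genotypes, whereas H2-DMa lies higher in Notch2-11cKO than in WT at like means.

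The genes of the factors that hold CIITA on DNA were not called. Of the 8 other genes in the list of CIITA and its partners (Rfx5, Rfxap and Rfxank of the X box complex, Nfya, Nfyb and Nfyc of the Y box factor, Creb1 and Atf1), 0 passed the threshold in any of the 5 comparisons. In any comparison at most 3.36% of all genes were called in 1 direction, so this count says little of the list. Rfx5 itself differed by -0.22 in the WT response (adjusted p = 0.725) and by -0.41 in the Notch2-11cKO response (adjusted p = 0.642). Nlrc5, the CIITA relative that drives class I genes, differed by 0.13 and 0.07 in the same responses (adjusted p = 0.786 and 0.941).

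Of 12 measured regulators of Ciita, Irf8 rose in the WT response (1.42 ± 0.33, adjusted p = 0.0393). Irf8 was also higher in Notch2-11cKO than in WT untreated cells (1.93 ± 0.36, adjusted p = 0.00957). Irf1, an interferon-induced activator of Ciita, was higher in Notch2-11cKO both untreated (2.83-fold, adjusted p = 0.00305) and after SRBC (0.93 ± 0.19 on the log2 scale, adjusted p = 0.0175). Irf4 was at -1.49 in untreated Notch2-11cKO against WT and missed the threshold (adjusted p = 0.0528), and the myeloid factor gene Spi1 was not called in any of the 5 comparisons.

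The genes for the class II chains themselves stayed high. H2-Aa, which encodes the alpha chain of I-A, had log2 intensities of 12.12, 11.63 and 12.02 in Notch2-11cKO SRBC, against 12.11 and 12.10 in Notch2-11cKO untreated. In WT it was at 12.02, 11.90 and 11.87 after SRBC, against 12.16 and 12.12 untreated. The genotypes overlapped after SRBC, whereas both untreated Notch2-11cKO arrays lay just below both untreated WT arrays. H2-Ab1, its beta chain partner, had 12.19, 11.90 and 12.35 in Notch2-11cKO SRBC, against 12.44 and 12.29 in Notch2-11cKO untreated. It was at 12.09, 12.34 and 12.29 in WT SRBC, against 12.28 and 12.38 in WT untreated, and the genotypes overlapped in each condition.

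H2-Eb1, the I-E beta chain gene, was at 11.92, 12.02 and 11.82 in WT SRBC, against 12.27 and 12.27 in WT untreated, and every SRBC array was lower. In Notch2-11cKO it was at 12.13, 11.76 and 12.15 after SRBC, against 12.24 and 12.28 untreated. Cd74 was at 11.91, 12.15 and 12.11 in WT SRBC, against 12.42 and 12.43 in WT untreated, with no overlap. It was at 12.05, 11.86 and 12.22 in Notch2-11cKO SRBC, against 12.50 and 12.41 in Notch2-11cKO untreated, again with no overlap.

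None of these 4 genes passed the threshold in any of the 5 comparisons. In the WT response the differences were -0.21 ± 0.15 for H2-Aa, -0.09 ± 0.15 for H2-Ab1, -0.35 ± 0.14 for H2-Eb1 and -0.37 ± 0.13 for Cd74 (adjusted p = 0.178 to 0.817). After quantile normalization those of H2-Aa and H2-Ab1 were 0.03 and 0.06. The 95% intervals in the WT response reached no lower than -0.66 (Cd74). In the Notch2-11cKO response Cd74 was at -0.41 ± 0.13 (adjusted p = 0.288), and without both arrays that stood apart it was called (-0.50, adjusted p = 0.0295). Between genotypes all 4 genes differed by less than 0.10 in either condition, with intervals that reached no lower than -0.39 and no higher than 0.38. After SRBC these differences were larger in some alternatives, without a call: H2-Ab1 was at -0.21 and H2-Aa at -0.14 after quantile normalization, and H2-Ab1 at -0.27 and Cd74 at -0.18 without both arrays that stood apart. Over all 10 arrays they spanned 0.51 to 0.64 log2 units, and Ciita spanned 2.26. The highest value in the table was log2 13.48, so the 4 genes were bright but below the top of the measured range. How linear the arrays are at this brightness was not tested.

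Other class II chain genes behaved unequally. H2-Ea, the I-E alpha chain gene, fell in the WT response to 6.30, against 7.37 untreated (-1.08 ± 0.23, adjusted p = 0.0244), while H2-Eb2, a less studied beta chain gene, differed by 0.06 ± 0.28 (adjusted p = 0.946). H2-Ea is not transcribed in some inbred strains.

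H2-DMa, the alpha chain of the peptide exchange factor, fell 2.44-fold in WT cells after SRBC (-1.29 ± 0.19, interval -1.71 to -0.86, adjusted p = 0.00438). Its log2 intensity was 9.02, 8.49 and 8.71 in WT SRBC, against 10.08 and 9.97 in WT untreated. In Notch2-11cKO it was 10.35, 10.12 and 9.93 after SRBC, against 10.70 and 10.80 untreated. The Notch2-11cKO arrays after SRBC lay around the untreated WT level, and every WT SRBC array lay below all others.

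After SRBC, H2-DMa was 2.63-fold higher in Notch2-11cKO than in WT (1.39 ± 0.17, interval 1.01 to 1.77, adjusted p = 0.000718). This call held in all 22 alternatives tried, with adjusted p between 3.44e-05 and 0.00818. In untreated cells the difference was 0.72 ± 0.21 and missed the threshold (adjusted p = 0.0879). It was called in 5 of 22 alternatives, among them the fit without WT SRBC 1 (adjusted p = 0.0316) and the fit without both arrays that stood apart (adjusted p = 0.00714).

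The Notch2-11cKO response of H2-DMa was -0.61 ± 0.19 (adjusted p = 0.270). The responses of the genotypes differed by 0.67 ± 0.27, which did not pass the threshold (adjusted p = 0.711), and without both arrays that stood apart they differed by 0.91 (adjusted p = 0.0366). In the order Notch2-11cKO untreated (10.75), Notch2-11cKO SRBC (10.14), WT untreated (10.03) and WT SRBC (8.74), only the last neighbours differed past the threshold. Notch2-11cKO SRBC and WT untreated were 0.11 apart (interval -0.32 to 0.53, adjusted p = 0.848).

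The fall of H2-DMa in WT no longer passed when WT untreated 1 was left out (-1.23, adjusted p = 0.0932) or with the immediate-early and heat shock mean as a covariate (-0.48 ± 0.33, adjusted p = 0.540). The genotype difference after SRBC was 1.27 ± 0.14 with that covariate (adjusted p = 0.000182). Monocyte, macrophage and cDC1 markers also differed between genotypes. The summed intensity of 8 monocyte markers was 9797 to 12455 in Notch2-11cKO SRBC and 2013 to 2285 in WT SRBC, and 10191 to 11401 in Notch2-11cKO untreated and 1775 to 2158 in WT untreated. Of the 8, 6 were higher in Notch2-11cKO in each condition, among them Lyz2, Ccr2 and Csf1r. Over all genes, 2.95% were called higher in untreated Notch2-11cKO and 3.36% after SRBC. Lyz2 made up much of the sum, at log2 12.44 to 12.83 in Notch2-11cKO and 9.84 to 10.30 in WT. Ms4a4c ran the other way in untreated cells, without a call (8.08 and 8.24 in Notch2-11cKO, 8.83 and 9.06 in WT). Of 13 macrophage markers, 7 were higher in untreated cells and 8 after SRBC, and their sum was 3486 to 4278 in Notch2-11cKO SRBC and 1643 to 2427 in WT SRBC, and 3499 to 4299 in Notch2-11cKO untreated and 986 to 1061 in WT untreated. Adgre1 (7.86 and 7.37 in Notch2-11cKO, 8.55 and 8.34 in WT) and Marco ran the other way in untreated cells, without a call. After SRBC the group means of Timd4, Spic, Adgre1 and the monocyte marker Ms4a4c were lower in Notch2-11cKO, without a call. Timd4 lay at 5.46, 5.98 and 7.09 in Notch2-11cKO SRBC and at 6.13, 7.70 and 7.38 in WT SRBC. In the WT response 3 of the 13 rose, where 1.82% of all genes were called higher. Of 8 cDC1 markers, 3 were higher in untreated Notch2-11cKO, 3 were higher and 1 lower after SRBC, and 2 rose in the WT response. After SRBC 1.96% of all genes were called lower in Notch2-11cKO. The part of these cell types in the H2-DMa result was not tested. The expression of H2-DMb1 and H2-DMb2, the beta chain genes of H2-DM, was not analysed here.

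The H2-O genes went the other way between genotypes. H2-Oa, the alpha chain gene of this H2-DM inhibitor, had log2 intensities of 8.82 and 9.09 in Notch2-11cKO untreated, against 10.47 and 10.13 in WT untreated. After SRBC it was at 8.56, 8.91 and 8.50 in Notch2-11cKO, against 9.15, 9.53 and 9.52 in WT. All 5 Notch2-11cKO arrays lay below all 5 WT arrays. The share of all genes that separate the genotypes in this way was not counted.

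H2-Ob, its beta chain partner, was at 7.90 and 7.80 in Notch2-11cKO untreated, against 10.01 and 9.68 in WT untreated. After SRBC it was at 7.85, 7.73 and 8.34 in Notch2-11cKO, against 8.48, 9.37 and 9.33 in WT. Here too the genotypes did not overlap, with no share of all genes counted, and WT SRBC 1 was the WT array nearest to Notch2-11cKO.

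In untreated cells H2-Oa was 2.54-fold lower in Notch2-11cKO (-1.34 ± 0.23, adjusted p = 0.00503) and H2-Ob 3.99-fold lower (-2.00 ± 0.31, adjusted p = 0.00288). After SRBC the differences were -0.74 ± 0.19 for H2-Oa (adjusted p = 0.0417) and -1.08 ± 0.25 for H2-Ob (adjusted p = 0.0307). The untreated H2-Ob call held in all 22 alternatives. The untreated H2-Oa call did not survive the removal of WT untreated 1 (-1.18, adjusted p = 0.0818) or of Notch2-11cKO untreated 1 (-1.21, adjusted p = 0.0693).

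The calls after SRBC were less firm, and each held in 13 of 22 alternatives. That of H2-Oa was lost without any one of WT untreated 1 or 2, Notch2-11cKO untreated 1 or 2, WT SRBC 2 or 3, or Notch2-11cKO SRBC 1 or 3 (adjusted p = 0.0617 to 0.146). That of H2-Ob was lost without any one of WT untreated 1 or 2, Notch2-11cKO untreated 1 or 2, WT SRBC 2 or 3, or Notch2-11cKO SRBC 1 or 2 (adjusted p = 0.0514 to 0.121). Both were lost in the fit on only the groups compared (adjusted p = 0.109 and 0.0941). Without both arrays that stood apart the differences were -0.79 (adjusted p = 0.0133) and -1.56 (adjusted p = 8.75e-05).

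H2-Oa also fell in the WT response (-0.90 ± 0.21, interval -1.36 to -0.44, adjusted p = 0.0376). This call held in 12 of 22 alternatives and was lost without any one of WT untreated 1 or 2, WT SRBC 2 or 3, Notch2-11cKO untreated 1 or 2, or Notch2-11cKO SRBC 1 (adjusted p = 0.0559 to 0.353). It was also lost in the fit on only the groups compared (adjusted p = 0.0566), with the replicate number as a block (adjusted p = 0.0550) and with the immediate-early and heat shock covariate (-0.93 ± 0.46, adjusted p = 0.375). H2-Ob was at -0.79 ± 0.28 in the WT response (adjusted p = 0.173). In Notch2-11cKO, H2-Oa was at -0.30 ± 0.21 (adjusted p = 0.702) and H2-Ob at 0.13 ± 0.28 (adjusted p = 0.935). Differences between the responses of the genotypes were 0.60 ± 0.29 and 0.92 ± 0.40 (adjusted p = 0.799 and 0.759).

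In the order of H2-Oa, WT untreated (10.30), WT SRBC (9.40), Notch2-11cKO untreated (8.95) and Notch2-11cKO SRBC (8.66), only the first neighbours differed past the threshold. Notch2-11cKO untreated and WT SRBC were 0.44 apart, at -0.44 ± 0.21 (adjusted p = 0.237). In the order of H2-Ob, WT untreated (9.85), WT SRBC (9.06), Notch2-11cKO SRBC (7.97) and Notch2-11cKO untreated (7.85), only the middle neighbours did.

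B cell markers were examined beside these genes, since B cells are rich in H2-O. Of 13 measured, 3 were lower in untreated Notch2-11cKO than in WT (Cd22, Bank1 and Ms4a1), 2 were lower after SRBC (Cd22 and Ms4a1), and 2 fell in the WT response (Cd22 and Bank1). The shares of all genes called lower in these comparisons were 2.16%, 1.96% and 1.97% in that order. The summed intensity of the 13 was 394 to 462 in Notch2-11cKO untreated and 757 to 815 in WT untreated, and 350 to 406 in Notch2-11cKO SRBC and 466 to 480 in WT SRBC. Cd22 made up much of this, at log2 5.67 to 5.77 in Notch2-11cKO untreated and 8.29 to 8.51 in WT untreated. Of the markers without a call, Cd79a lay between 2.49 and 3.29, Pax5 between 4.21 and 4.65 and Ebf1 between 2.95 and 3.78 over the 10 arrays. Cd79b ran the other way, at 6.93 to 7.46 in Notch2-11cKO untreated and 6.25 to 6.40 in WT untreated, and at 6.20 to 6.41 in Notch2-11cKO SRBC and 5.38 to 6.19 in WT SRBC, without passing the threshold. The part of B cells in the H2-O results was not tested.

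Within arrays, the spacing of H2-DMa and the H2-O genes differed by genotype. In both pairs all 5 Notch2-11cKO arrays lay above all 5 WT arrays. The pairs join genes whose genotype differences, given above, lay in opposite directions, so this separation largely restates those values and is no further support. H2-DMa minus H2-Oa was 1.21 to 1.80 in Notch2-11cKO SRBC and -1.04 to -0.13 in WT SRBC, and 1.71 to 1.88 in Notch2-11cKO untreated and -0.38 to -0.16 in WT untreated. H2-DMa minus H2-Ob was 1.59 to 2.50 in Notch2-11cKO SRBC and -0.88 to 0.54 in WT SRBC, and 2.79 to 3.01 in Notch2-11cKO untreated and 0.07 to 0.29 in WT untreated. These values compare unequal change between groups, not the amounts of the transcripts, since probe sets differ in brightness.

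**Figure D3:**
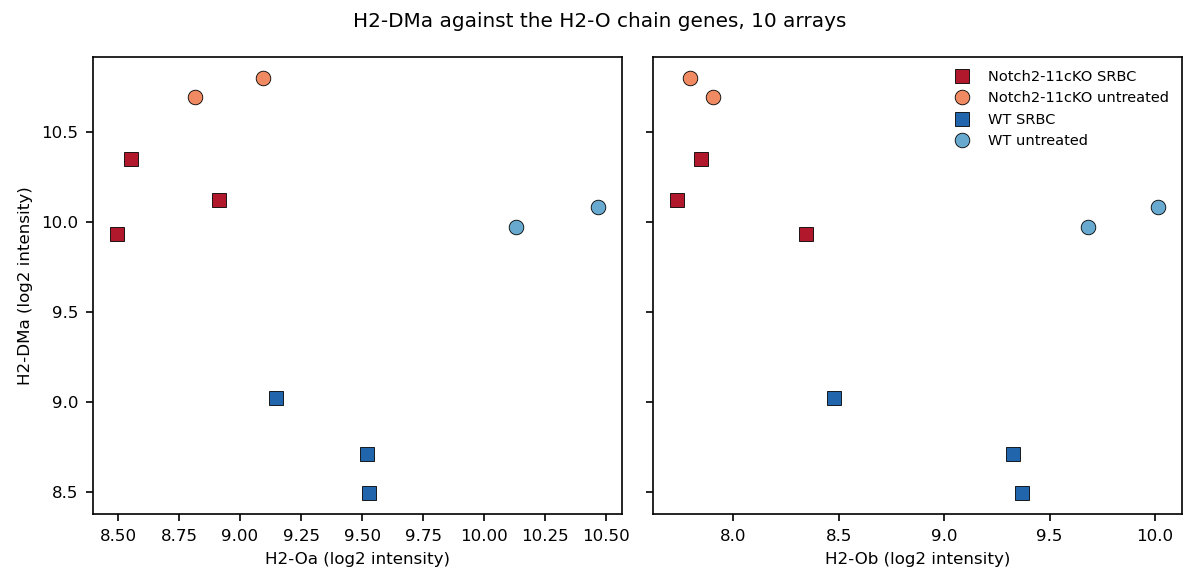
Log2 intensity of H2-DMa (vertical) against H2-Oa (left) and H2-Ob (right) in the 10 arrays. Squares are SRBC arrays and circles untreated arrays. The Notch2-11cKO arrays (reds) lie to the left of the WT arrays (blues) in both panels, and the WT SRBC arrays lie lowest in H2-DMa, between 8.49 and 9.02.

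Counted together, 3 of the 8 genes fell in the WT response (Ciita, H2-DMa and H2-Oa), where 1.97% of all genes were called lower, and 0 rose, where 1.82% of all genes did. All 8 differences were below 0 in the fit as described and 6 after quantile normalization. In 7 of the 8 genes every WT SRBC array lay below every WT untreated array, against 15.7% of all genes. These shares are over genes of all levels, while the 8 lie above the median level. In the fit on only the genes above the median level (9961 besides the 8), 920 genes were called in either direction in the WT response. Over all 19938 genes 756 were, so the share called was higher among the genes above the median level. The median difference was -0.58 over the 8 and 0.02 over all genes.

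In the Notch2-11cKO response 0 of 8 were called by limma, where 0.306% of all genes were called. Of the 8, 3 had an unadjusted p under 0.05 (10% of all genes did): Ciita, Cd74 and H2-DMa. In 4 of the 8 every SRBC array lay below every untreated array, against 12.2% of all genes, and the median was -0.27, against 0.03 over all genes.

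Between genotypes in untreated cells 2 of 8 were lower (H2-Oa and H2-Ob), where 2.16% of all genes were, and 0 were higher, where 2.95% were, with a median of -0.02 over the 8 and -0.02 over all genes. After SRBC 1 was higher (H2-DMa), where 3.36% of all genes were, and the H2-O genes were lower, where 1.96% were. In the test of the responses against each other 0 of 8 were called by limma, where 0.0201% of all genes were. Of the 8, 2 had an unadjusted p under 0.05 there (H2-DMa and H2-Ob), against 6.47% of all genes.

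**Figure D4:**
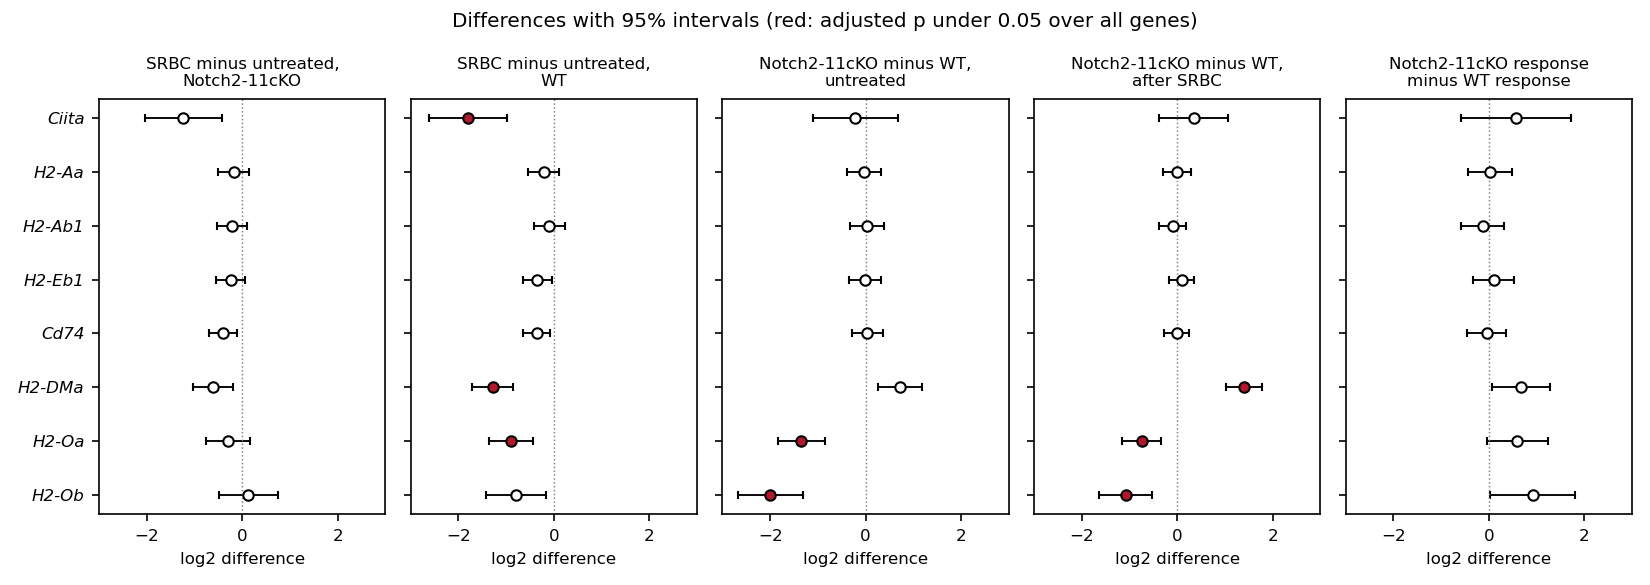
Log2 differences of the 8 genes with 95% intervals in the 5 comparisons. Red points passed an adjusted p of 0.05 over all genes and white points did not. Ciita, H2-DMa and H2-Oa are red and below 0 in the WT response, H2-Oa and H2-Ob are red and below 0 in both genotype comparisons, and H2-DMa is red and above 0 after SRBC.

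Some proteases that act upstream of peptide loading differed between genotypes. Of 9 measured genes in a list of endosomal proteases, a thiol reductase and the protease inhibitor gene Cst3, 2 were higher in Notch2-11cKO in each condition. Of all genes, 2.95% were higher in untreated cells and 3.36% after SRBC. In either SRBC response 0 of the 9 passed, a count too near the share of all genes called there to say anything of the list. Ctsd, cathepsin D, was higher by 2.76 ± 0.21 after SRBC (adjusted p = 2.42e-05) and by 2.52 ± 0.26 in untreated cells (adjusted p = 0.000165). Ctsb, cathepsin B, was higher by 1.10 ± 0.22 after SRBC (adjusted p = 0.0122) and by 1.24 ± 0.26 untreated (adjusted p = 0.0186). Ctss, cathepsin S, the protease best known for the last cut of the invariant chain, was at 0.69 and 0.78 and missed the threshold (adjusted p = 0.0826 and 0.126).

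Of 11 measured genes of class II turnover and trafficking, 3 were higher in untreated Notch2-11cKO (the tetraspanin genes Cd63, Cd81 and Cd37). After SRBC Cd81 and Cd37 were higher in Notch2-11cKO and Arl14 was lower. Over all genes, 2.95% were called higher in untreated Notch2-11cKO, and 3.36% higher and 1.96% lower after SRBC. This list too was chosen with earlier results of these data known. Cd37 fell in the WT response (-0.71 ± 0.17, adjusted p = 0.0390) and Cd63 rose (2.61 ± 0.14, adjusted p = 9.14e-06). In that response 1.97% of all genes were called lower and 1.82% higher. Marchf1, the ubiquitin ligase that marks surface class II for degradation, was at -0.70 ± 0.27 in the WT response and at -0.41 ± 0.27 in the Notch2-11cKO response, both short of the threshold (adjusted p = 0.213 and 0.683).

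The class I presentation list gave 0 calls of 16 in either SRBC response, a count too near the share of all genes called there to say anything of the list. In Notch2-11cKO the chaperone gene Canx was higher untreated (0.83 ± 0.19, adjusted p = 0.0315) and after SRBC (0.77 ± 0.16, adjusted p = 0.0159), as was Pdia3 after SRBC (0.70 ± 0.18, adjusted p = 0.0452). Of 15 maturation genes, 8 rose in the WT response, where 1.82% of all genes were called higher, and 2 in the Notch2-11cKO response, where 0.306% of all genes were called in either direction. The list was chosen with earlier results of these data known, so its counts beside those shares are not independent support. The median difference of the 15 genes was 1.25 in the WT response and 0.88 in the Notch2-11cKO response. Untreated Notch2-11cKO was above untreated WT in Ccl22 (4.49) and Ccl17 (2.64) and below it in Cd86 (-1.16), all called. Whether the counts differ between the responses was not tested. How the counts relate to the fall of Ciita was not tested either.

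H2-Aa, H2-Ab1, H2-Eb1, H2-DMa, H2-Oa and H2-Ob lie in a cluster on chromosome 17, Ciita is on chromosome 16 and Cd74 on chromosome 18. Between H2-Oa and H2-Eb1 lie other genes, of which 5 were measured: Brd2, Psmb9, Tap1, Psmb8 and Tap2, the last 4 of class I presentation. None of the 5 passed the threshold in any of the 5 comparisons. At most 3.36% of all genes were called in 1 direction in any comparison, so this says little of these neighbours. In untreated Notch2-11cKO against WT they ranged from -0.64 (Psmb9) to 0.13 (Tap1), beside -1.34 and -2.00 for the H2-O genes. These neighbours were looked up after the values of the 8 genes had been seen.

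Genes with like patterns over the 10 arrays were listed among 9961 genes above the median level, by Pearson r. Closest to Ciita were Zfp36l2 (0.987), Fos (0.980), Pbxip1 (0.977), Hlcs (0.976) and Relt (0.973). Closest to H2-DMa were Nadk (0.991), Zfp524 (0.985), Cd209a (0.981), Atg7 (0.971) and Slamf8 (0.971). Closest to the mean of H2-Aa, H2-Ab1, H2-Eb1 and Cd74 were Anp32b (0.975), Naca (0.969), Pabpc1 (0.969), Efhd2 (0.966) and Mroh2a (0.961). These values describe shared differences between the 4 groups as much as likeness within them.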

How the data were processed

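RNA of sorted cDC2 was hybridised to 10 one-colour arrays with 28853 probe sets. The deposited table holds linear intensity, which the authors had put on a common scale (array medians 29.5 to 31.7) by a method that the sources used here do not give. Log2 was taken of the deposited intensity. Probe sets with 1 gene symbol in the platform annotation (21789) were kept, those with several (1621) or none (5443) were left out, and the brightest by mean stood for each of 19938 genes. With no detection calls, no gene was called above background. Precision is limited by the small number of arrays.

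limma 3.58.1 in R 4.3.3 (lmFit, then eBayes with a mean-variance trend) fitted 4 group means over 10 arrays with 6 residual degrees of freedom. P-values were two-sided and adjusted by Benjamini-Hochberg over all genes at 0.05. The genes, lists and markers were chosen with earlier results of these data known. Named beside the 8 were up to 4 genes of each list with the smallest p past the threshold, a few fixed partners, and the 5 genes most like Ciita, H2-DMa and the 4 bright genes. The fit was tested on simulated data for each comparison. Alternatives covered probe choice, level filters, normalization, variance model, array weights, groups in the fit, replicate block, an immediate-early and heat shock covariate and arrays left out. Whether same-numbered arrays pair could not be decided: of 13 such pairs, deviations correlated between -0.22 and 0.48, with 7 above 0.1. The SRBC arrays of both genotypes correlated at 0.48, -0.22 and 0.40 for replicates 1, 2 and 3. With 2 arrays in a group the deviations mirror each other, so the untreated pairs are not separate checks. Promoters were searched in Python 3.11.15. Figures used matplotlib 3.10.9.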

Additional observations from a re-analysis of the deposited data

Results flagged for a closer look

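Among the genes of class II trafficking, the tetraspanin gene Cd63 responded to SRBC unequally in the genotypes. Its response was smaller in Notch2-11cKO than in WT by -2.03 on the log2 scale (adjusted p = 0.00526 in the limma test of the responses against each other). Cd63 lay at log2 11.53 to 11.73 in Notch2-11cKO SRBC and at 10.93 to 11.15 in Notch2-11cKO untreated, and at 11.09 to 11.23 in WT SRBC and at 8.49 to 8.56 in WT untreated. The Notch2-11cKO untreated arrays overlapped the WT SRBC arrays and lay above the WT untreated arrays. The call held in 19 of 21 alternatives, with differences between -2.14 and -1.93. Leaving out WT untreated 1 ended it (-2.00, adjusted p = 0.103), as did leaving out Notch2-11cKO untreated 1 (-1.93, adjusted p = 0.0841).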

How the results depend on the processing

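Across 22 alternatives, most member results kept direction and side of the threshold (790 of 872); 36 lost and 10 gained a call. The Ciita response in WT was the only called value to turn, at 0.23 with the immediate-early and heat shock covariate; the cause was not tested. Numbers of genes called, and where stated of members, moved as follows. WT response: 1886 genes with array weights, 46 and 0 members with the covariate, and 2300 without WT SRBC 1 and Notch2-11cKO SRBC 3. Notch2-11cKO response: 103 without a variance trend, 267 with weights, 23 with only the groups compared, 2 with the covariate, and 398 and 2 members without both arrays. Untreated genotypes: 1822 with weights, 1966 with only the groups compared and 1996 without both arrays. Genotypes after SRBC: 1615 with weights, 627 and 1 member with only the groups compared, and 2364 without both arrays. Difference between responses: 2 among genes above the median, 7 without a trend, 63 with weights, and 604 and 2 members without both arrays. Leaving out each array in turn gave 101 (without WT untreated 1) to 1331 (without WT SRBC 1) genes and 0 to 3 members in the WT response, 2 (without Notch2-11cKO untreated 1) to 183 (without WT SRBC 1) genes and 0 members in the Notch2-11cKO response, 418 (without WT untreated 1) to 1390 genes and 1 to 3 members between untreated genotypes, 649 (without Notch2-11cKO SRBC 1) to 1256 genes and 1 to 3 members after SRBC, and 0 (without WT untreated 1) to 44 (without WT SRBC 1) genes and 0 members in the difference between responses. With the replicate number as a block the counts were 715, 50, 1175, 1319 and 6 genes in these comparisons, and the H2-Oa fall in WT was lost (adjusted p = 0.0550). With the shorter X1 core, chosen after the data were seen, 4 members' windows held the pair, against 1.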
